A study of Mus musculus with 4 samples.

Results

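The 10 genes described here encode transcription factors and cofactors of the red cell lineage and of blood progenitors: Klf1, Gata1, Gata2, Tal1, Nfe2, Gfi1b, Lmo2, Zfpm1, Bcl11a and Myb. They were found by gene name among all probes outside the control types, which gave 16 probes, and all 10 were among the 17161 genes tested. The study asked what the loss of nucleoredoxin, a thioredoxin-related protein encoded by Nxn, does to the embryo. Embryos labelled NRX -/- (here Nxn-null) were compared with embryos labelled NRX +/+ (wild type), both C57BL/6J, at E9.5 and, later, at E11.5 (E counts days of embryonic development). The sources used here do not give the structure of the mutant allele, the number of embryos behind each RNA, or whether the yolk sac was kept. One label field calls the mutant RNA "KD" although the genotype field gives a homozygous null.

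Red cells of the mouse embryo arise in waves. Primitive erythroid cells form first in the blood islands of the yolk sac and mature in the circulation, and definitive erythropoiesis then begins in the fetal liver. GATA1, together with its cofactor FOG1 (encoded by Zfpm1) and a complex of TAL1, LMO2 and other proteins, drives erythroid genes, whereas GATA2 and MYB act mainly in progenitors and are lowered as red cells mature. KLF1 activates globin, heme and membrane genes, NFE2 acts at the globin locus and in platelet formation, GFI1B represses genes in erythroid and megakaryocytic cells, and BCL11A represses embryonic globin genes.

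GATA1 binds GATA motifs, the only motifs searched. The upstream runs that hold such a motif are shown for 3 of the genes that were lower in the Nxn-null RNA. The sequences are the 250 bases before the gene's start in the RefSeq promoter table of GRCm38.p6, each written 5′ to 3′ in the direction of the gene, with the motif in capitals. They lie upstream of the first exon.
Klf1, chr8:84901732-84901981, plus strand: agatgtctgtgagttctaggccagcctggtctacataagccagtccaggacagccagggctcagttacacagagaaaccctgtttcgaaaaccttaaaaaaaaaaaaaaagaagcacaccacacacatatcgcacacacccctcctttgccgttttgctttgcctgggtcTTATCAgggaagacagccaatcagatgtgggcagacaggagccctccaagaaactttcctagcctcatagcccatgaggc
Gfi1b, chr2:28621983-28622232, minus strand: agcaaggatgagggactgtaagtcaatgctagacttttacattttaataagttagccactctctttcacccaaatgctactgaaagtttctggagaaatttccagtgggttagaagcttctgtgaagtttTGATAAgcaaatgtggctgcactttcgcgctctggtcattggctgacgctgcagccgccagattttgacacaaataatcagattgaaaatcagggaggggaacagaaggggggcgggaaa
Tal1, chr4:115056176-115056425, plus strand, the first of its 2 starts: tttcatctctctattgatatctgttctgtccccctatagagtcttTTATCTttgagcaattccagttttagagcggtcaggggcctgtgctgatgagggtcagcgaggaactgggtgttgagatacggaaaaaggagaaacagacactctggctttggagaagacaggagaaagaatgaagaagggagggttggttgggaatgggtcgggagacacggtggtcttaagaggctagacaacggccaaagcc
The letters searched on both strands were AGATAA or AGATAG, and each of these with T in place of the first A, and none of these motifs contains another. TGATAA was found on the other strand from base 80 to base 75 before the start of Klf1, where it reads TTATCA, and on the gene's own strand from base 120 to base 115 before the start of Gfi1b. AGATAA was found on the other strand from base 205 to base 200 before the first start of Tal1, where it reads TTATCT. The table held 10 windows for 8 of the 10 genes, without Nfe2 and Lmo2. The windows of Gata1, Gata2, Zfpm1, Bcl11a and Myb and the other start of Tal1 held none of these letters. Among all 32851 windows of the same length, 8718 (26.5%) held at least 1 match, so the motif is common at this length and a match describes letters only.

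Nxn-null and wild-type RNA of matching stage were hybridised together, in different dyes. In replicate 1 of each stage Cy5 marked the Nxn-null RNA, and in replicate 2 Cy3 did, so each stage had n = 2 arrays. The labels do not say that these came from separate RNA extracts, so the p-values at a stage measure only array spread, which may be technical. Between 48.2% and 70.3% of gene probes were well above background in a channel, and 0 to 7 spots per array were saturated. Ratios correlated across genes at 0.48 between the arrays of E9.5 and at 0.26 between those of E11.5. Arrays with the same dye orientation at different stages correlated at 0.34 and 0.36, more than the dye-swapped pair of E11.5, and those of opposite orientation at -0.08 and -0.16. The check of the targeted gene gave a lower Nxn ratio on each of the 4 arrays, at 44.8% of the wild-type level over both stages. Its probe was still well above background in the Nxn-null RNA on all 4. Markers of 2 tissues moved with genotype at E9.5. The summed intensity of 12 visceral endoderm markers of the yolk sac in the Nxn-null RNA was 10.2% to 12.5% of wild type at E9.5 but 91.0% to 101.3% at E11.5, and that of 12 neuronal markers was 127.4% to 129.7% at E9.5 and 101.4% to 102.6% at E11.5. At E11.5 the RNAs also differed in sex-linked transcripts: Xist was not well above background in wild type, and the Y-linked Eif2s3y and Ddx3y did not pass that background call in the Nxn-null RNA. The part of these differences in the results below was not tested.

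Klf1 was the factor that fell most in the Nxn-null embryos, and Nfe2, Gfi1b, Zfpm1 and Tal1 fell less. These 5 were called lower at both stages, as were 3% of all genes, and were lower on all 4 arrays. The members were chosen with earlier results of these data known, so such counts are no test of the set. Myb was the only member higher at both stages, by 1.13-fold and 1.21-fold, and Gata1, the partner of several of these proteins, did not pass the test at either stage. In limma fitted over all genes with a dye term and Benjamini-Hochberg adjustment at 0.05, 5 of 10 members were lower and 2 higher at E9.5, where 14.8% of all genes tested were lower and 9.88% higher. At E11.5, 5 were lower and 1 higher, where 5.64% of all genes were lower and 3.67% higher. The members' median log2 ratio was -0.18 at E9.5, then -0.20 at E11.5, against -0.00077 and 0.0072 over all genes. The members lower on all 4 arrays included Gata1 as well, and 10.5% of all genes showed that pattern. These are whole-embryo RNAs, in which fewer cells of a type and less RNA per cell cannot be told apart.

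**Figure D1:**
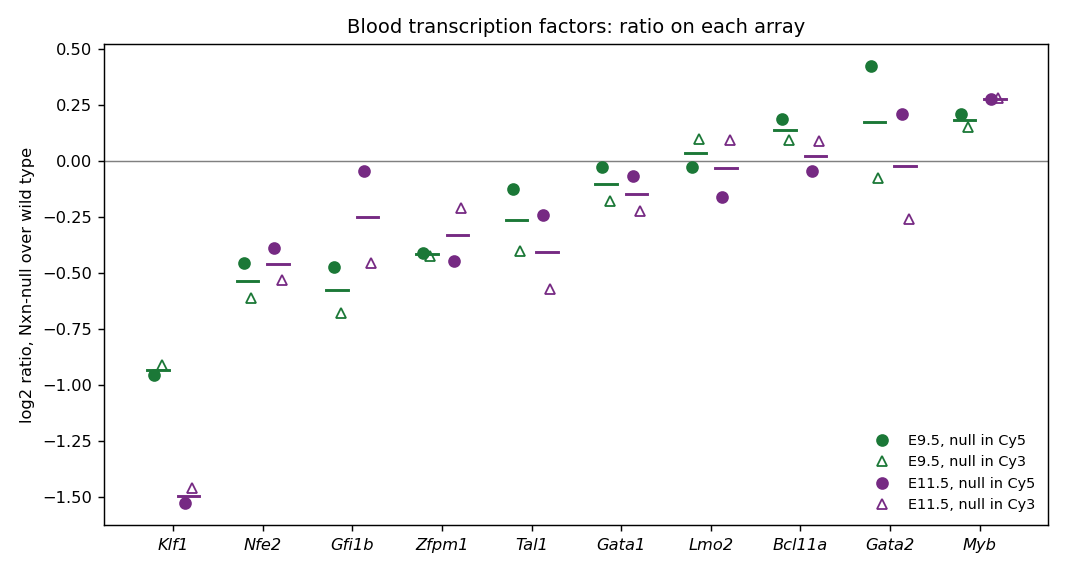
Log2 ratio of Nxn-null over wild type (y axis) for the brightest probe of each of the 10 factors (x axis) on each array. Green is E9.5 and purple E11.5, filled circles have the Nxn-null RNA in Cy5 and open triangles in Cy3, and bars are the means of 2 arrays. Klf1 lies between -0.91 and -1.53, and the Gata2 arrays split by dye.

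Klf1 encodes the zinc finger activator of the red cell program. Its probe (NM_010635) read -0.95 and -0.91 on the E9.5 arrays and -1.53 and -1.46 on the E11.5 arrays, on the log2 scale. The 4 values lay far below 0, and both E11.5 values lay below both E9.5 values. The means were -0.93 ± 0.03 at E9.5 and -1.49 ± 0.05 at E11.5 (SD, n = 2 arrays each), which is 52.4% and 35.6% of the wild-type level. Both passed the limma test (adjusted p = 4.19e-10 and 1.39e-12). Among the 17161 genes Klf1 ranked 156th from the lowest at E9.5 and 9th at E11.5. It was the only member to reach the 2-fold change used in the series' design text, and did so at E11.5 (2.81-fold lower, a size reached by 0.152% of all genes) but not at E9.5 (1.91-fold, where 0.752% of all genes fell at least 2-fold).

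The Klf1 ratio was further from 0 at E11.5 than at E9.5. The difference between the stages was -0.56 ± 0.09 (limma SE, adjusted p = 0.000111). Over all genes 5.23% had a lower and 8.32% a higher value by this test, and of the members only Klf1 was lower and only Gfi1b higher. The difference for Klf1 kept its sign in all 14 settings tried, between -0.59 and -0.49, but passed the threshold in 7 of them. It was not called with median centring, with the Feature Extraction log ratio, without the dye term or with any one array left out.

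In levels, Klf1 rose with stage in both genotypes, and less in the Nxn-null embryos. Its log2 level in wild type was 9.97 and 9.89 at E9.5, then 11.73 and 11.60 at E11.5. In the Nxn-null RNA it was 9.02 and 8.98 at E9.5, then 10.21 and 10.14 at E11.5. The 4 groups did not overlap. The rise was 3.33-fold in wild type and 2.26-fold in the Nxn-null RNA, so the Nxn-null level at E11.5 lay 0.24 log2 units above the wild-type level of E9.5.

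Klf1 also stood below each of the other 9 factors on every array. The gap was smallest against Gfi1b on E9.5 replicate 2, where Klf1 was lower by a log2 difference of -0.23, and largest against Myb on E11.5 replicate 1, at -1.80. Against Gata1 it was -0.93 and -0.73 at E9.5, then -1.46 and -1.23 at E11.5. Such a gap is between probes and shows at most that the factors changed unequally. The Gata1 probe was dimmer, with log2 levels of 8.27 to 8.45 at E9.5 against 8.98 to 9.97 for Klf1. The part of probe level in the gap was not tested. The genes whose 4 array ratios were nearest to those of Klf1, by Euclidean distance over the 4 arrays, were Ocel1 (distance 0.204), Nxn itself (0.301) and a transcript listed without a gene symbol (0.525). Ocel1 read -0.93 at E9.5, then -1.41 at E11.5, and Nxn read -0.99 and -1.33.

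Nfe2 encodes the blood-restricted subunit of the NF-E2 factor. Its probe (NM_008685) read -0.46 and -0.61 on the E9.5 arrays and -0.39 and -0.53 on the E11.5 arrays. The stages overlapped, and every value was below 0. The means were -0.53 ± 0.11 and -0.46 ± 0.10 (SD, n = 2 arrays), or 69.1% and 72.7% of wild type, and both passed limma (adjusted p = 1.46e-06 and 2.53e-05). The difference between stages was 0.07, with a 95% interval from -0.11 to 0.26, and was not called. The gene nearest to Nfe2 was Vegfc, a vascular growth factor (distance 0.0761), followed by 2 cDNA clones.

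Gfi1b encodes a zinc finger repressor. Its probe (NM_008114) read -0.47 and -0.68 at E9.5, then -0.05 and -0.45 at E11.5. Both E11.5 values lay above both E9.5 values, and E11.5 replicate 1 was close to 0. The means were -0.58 ± 0.15 and -0.25 ± 0.29 (SD, n = 2 arrays), or 67.1% and 84.0% of wild type (limma adjusted p = 7.96e-07 and 0.0138). The call at E11.5 held in 4 of 14 settings, with values from -0.45 to -0.05, and was also lost with an offset of 10, without the filter and with trend and robust moderation. The difference between stages, 0.33 ± 0.09 (limma SE), had an adjusted p of 0.0192 and was called in 5 of 14 settings. Without E11.5 replicate 1 it was 0.12, and without E11.5 replicate 2 it was 0.53, so a single array moved it by more than 1.5 times. In levels Gfi1b rose 2.91-fold in the Nxn-null RNA and 2.32-fold in wild type. The nearest gene was Tmem130, a transmembrane protein (distance 0.0915), followed by A130022F02Rik and a transcript without a symbol.

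Zfpm1 encodes FOG1, the partner through which GATA1 both activates and represses genes. Its probe (NM_009569) read -0.41 and -0.42 at E9.5, then -0.45 and -0.21 at E11.5. The E9.5 arrays were almost equal, and the E11.5 values lay on either side of them. The means were -0.42 ± 0.01 and -0.33 ± 0.17 (SD, n = 2 arrays), or 74.9% and 79.5% of wild type (limma adjusted p = 6.34e-05 and 0.00163). The nearest genes were 2 cDNA clones and Galnt10, a glycosyltransferase (distance 0.107).

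Tal1 encodes the helix-loop-helix factor needed for all blood formation. Its probe (NM_011527) read -0.13 and -0.40 at E9.5, then -0.24 and -0.57 at E11.5. Replicate 2, with the Nxn-null RNA in Cy3, was the lower array at each stage. The means were -0.26 ± 0.20 and -0.41 ± 0.23 (SD, n = 2 arrays), or 83.3% and 75.5% of wild type (limma adjusted p = 0.00355 and 0.000119). The difference between stages was -0.14, with a 95% interval from -0.33 to 0.04, and was not called. The nearest genes were the host gene Mir100hg (distance 0.118), Cfap69 and the alpha-like globin gene Hbq1b.

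For Nfe2, Gfi1b, Zfpm1 and Tal1 the sign was negative in all 14 settings at both stages, but the calls were less stable than those of Klf1. Without the dye term, Klf1 alone of the members was called at either stage. With any one array left out, 1 or 2 members were called lower at E9.5 but 1 at E11.5, and that fit has no dye term. The limma test that takes the stage averages as 2 replicates called no gene at all, and 7.23% of genes had an unadjusted p under 0.05. By that looser rule 6 members passed: Klf1, Nfe2, Gfi1b, Zfpm1 and Tal1 as lower and Myb as higher. The shared ratio of Klf1 was -1.21 with a limma SE of 0.15 and an adjusted p of 0.514. Nfe2, Tal1 and Zfpm1 were each called at E11.5 in 7 of 14 settings.

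**Figure D2:**
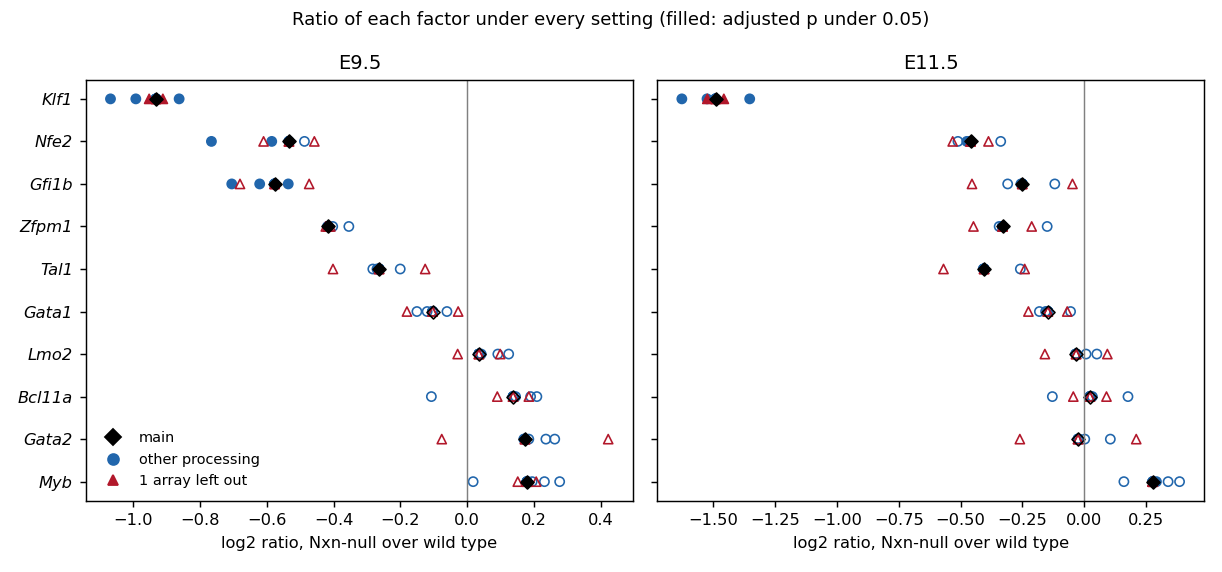
Log2 ratio of Nxn-null over wild type (x axis) for each factor (y axis) at E9.5 (left) and E11.5 (right) under every setting. Black diamonds are the main values, blue circles other processing choices and red triangles fits with 1 array left out, filled where the adjusted p was under 0.05. Klf1 is filled in all 14 settings at both stages, and the Gata2 values fall on both sides of 0.

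Gata1, the X-linked gene of the factor that commits cells to the red cell and platelet lineages, was measured by 1 probe (NM_008089) with 10 spots per array. It read -0.03 and -0.18 at E9.5, then -0.07 and -0.23 at E11.5. All 4 means were below 0, and the 10 spots had an SD of 0.036 to 0.094 within an array. The mean ratios were -0.10 ± 0.11 and -0.15 ± 0.11 (SD, n = 2 arrays), or 93.1% and 90.3% of wild type. Neither passed limma over all genes (adjusted p = 0.249 and 0.173). The 95% interval ran from -0.23 to 0.03 at E9.5 and from -0.28 to -0.02 at E11.5, which leaves room for a small reduction. Gata1 lies on the X chromosome, and the sex-linked transcripts differed between the E11.5 RNAs.

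Lmo2, the bridging protein between TAL1 and GATA factors, showed no call. Its probe (NM_008505) read -0.03 and 0.10 at E9.5, then -0.16 and 0.09 at E11.5, on both sides of 0. The 95% limma interval was -0.10 to 0.17 at E9.5 and -0.16 to 0.10 at E11.5.

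Myb encodes a progenitor factor that holds blood cells in cycle. Its brightest probe (NM_033597), with 10 spots per array, read 0.21 and 0.15 at E9.5, then 0.28 and 0.28 at E11.5. All 4 means were above 0, and 1 single spot of E9.5 replicate 2 fell below it. The means were 0.18 ± 0.04 and 0.28 ± 0.0014 (SD, n = 2 arrays), or 113.2% and 121.2% of wild type (limma adjusted p = 0.0407 and 0.00514). Of all genes, 7.59% were higher on all 4 arrays and 0.781% were called higher at both stages. The call at E9.5 held in 3 of 14 settings and that at E11.5 in 6, with values from 0.02 to 0.28 and from 0.16 to 0.39. A further probe to the same transcript read 0.16 at E9.5, then 0.29 at E11.5, and was called at E11.5 only when every probe was tested (adjusted p = 0.00489). A probe to the clone AK036518 went the other way. It read -0.28 at E9.5, where it was called lower (adjusted p = 0.00283), and -0.08 at E11.5, and it was not well above background in 2 of its 8 channels. The fourth probe, to NM_010848, was not well above background in 7 of 8 channels and was not tested. The nearest genes to Myb were Pgpep1, a peptidase (distance 0.0837), the linker histone gene H1f0 and the mitotic kinase gene Haspin.

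Gata2, the progenitor GATA factor that GATA1 replaces, was split by dye. Its brightest probe (NM_008090) read 0.42 and -0.08 at E9.5, then 0.21 and -0.26 at E11.5. Both arrays with the Nxn-null RNA in Cy5 were above 0 and both others below it, and the fitted dye effect was 0.24. The mean of 0.17 ± 0.35 at E9.5 (SD, n = 2 arrays) passed the limma test (adjusted p = 0.0469), because the dye term takes that split out of the error. The call held in 4 of 14 settings, and without E9.5 replicate 1 the value was -0.08. The other probe of the transcript varied less between dyes, at 0.19 and 0.14 at E9.5, then 0.06 and -0.0017 at E11.5, and was not called when every probe was tested (adjusted p = 0.0665 at E9.5). Gata2 at E11.5 was -0.03 (adjusted p = 0.880).

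Bcl11a, the repressor of embryonic globin genes, gave opposite answers by probe. Its brightest probe (NM_016707) read 0.19 and 0.09 at E9.5, then -0.04 and 0.09 at E11.5, and was called at neither stage (limma adjusted p = 0.133 and 0.898). A further probe to this transcript read 0.27 and -0.0042 at E9.5, then 0.06 and -0.04 at E11.5. The probe to the clone AK122557 was below 0 on all 4 arrays, at -0.36 and -0.83 at E9.5, then -0.28 and -0.56 at E11.5. It was called lower at both stages when every probe was tested (adjusted p = 9.25e-07 and 0.000173). The files do not say which part of the gene each probe covers, so the probes of Bcl11a and of Myb are given side by side and no single direction is given for Bcl11a.

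**Figure D3:**
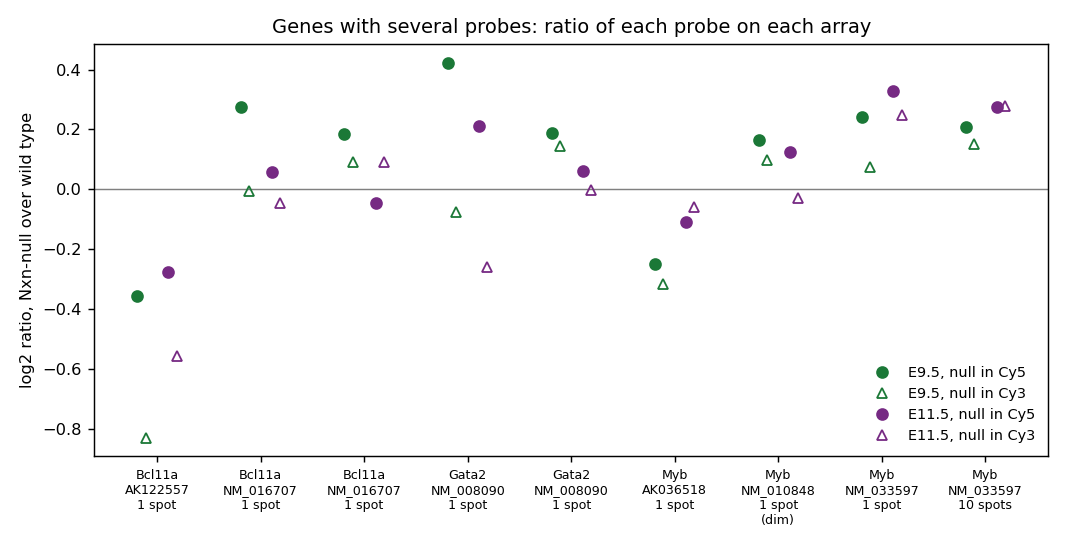
Log2 ratio of Nxn-null over wild type (y axis) for every probe of Bcl11a, Gata2 and Myb (x axis, with the transcript the array design names and the number of spots) on each array. Colours mark the stage and shapes the dye. The AK122557 probe of Bcl11a lies between -0.28 and -0.83, below both other probes of the gene.

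By their brightest probes, all 10 factors rose from E9.5 to E11.5. The change shared by the genotypes, tested by limma on single-channel levels of the 4 RNAs with the genotype as a block, was called higher for 10 of 10, where 21.0% of all genes were called higher. What the channels of an array share does not count towards that error, which makes these p-values too small. For each brightest probe, all 4 channels of E11.5 lay above all 4 channels of E9.5, a pattern that 22.9% of all genes showed. The rise was not particular to these factors. It was also called for 11 of 11 macrophage and myeloid markers, 11 of 12 neuronal markers and 30 of 39 red cell genes. By contrast, it was called for 1 of 14 endothelial markers and 10 of 34 other blood factors. A gene kept through E11.5 alone would tend to read as risen, so the filter bears on these counts. All 10 factors were well above background in both genotypes at both stages. So were 7 of the 11 macrophage and myeloid markers, 11 of the 12 neuronal markers and 38 of the 39 red cell genes. Of the 10 factors, Bcl11a rose most, by 3.80-fold (adjusted p = 0.00520), and Lmo2 least, by 1.36-fold (adjusted p = 0.0135). Between them stood Klf1 (2.74-fold), Gfi1b (2.60-fold), Nfe2 (2.43-fold), Tal1 (2.24-fold), Gata1 (1.85-fold), Gata2 (1.75-fold), Zfpm1 (1.47-fold) and Myb (1.42-fold). The AK036518 probe of Myb did not pass, with a shared log2 change of 0.0043 (adjusted p = 0.969 with every probe tested). Wild-type Bcl11a levels were 9.95 and 9.96 on the log2 scale at E9.5, then 12.01 and 11.86 at E11.5, and wild-type Lmo2 levels were 8.76 and 8.64, then 9.21 and 9.14.

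The order of the 4 RNAs separated the factors. For Klf1, Nfe2, Gfi1b, Zfpm1, Tal1 and Gata1 the levels ran from Nxn-null E9.5 through wild-type E9.5 and Nxn-null E11.5 to wild-type E11.5. The smallest step was larger than the largest SD of single-channel levels in a group for each of these 6. Against the SD of the ratios of 2 arrays, 2 genotype steps fell short. These were Gata1 at E9.5 (0.103 against 0.108) and Gfi1b at E11.5 (0.251 against 0.287), and Gata1 was called at neither stage. For Myb the Nxn-null RNA stood above wild type at each stage. For Lmo2, Gata2 and the brightest Bcl11a probe, the genotypes at E11.5 lay within 0.033 log2 units of each other, less than the SD of the array ratios.

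**Figure D4:**
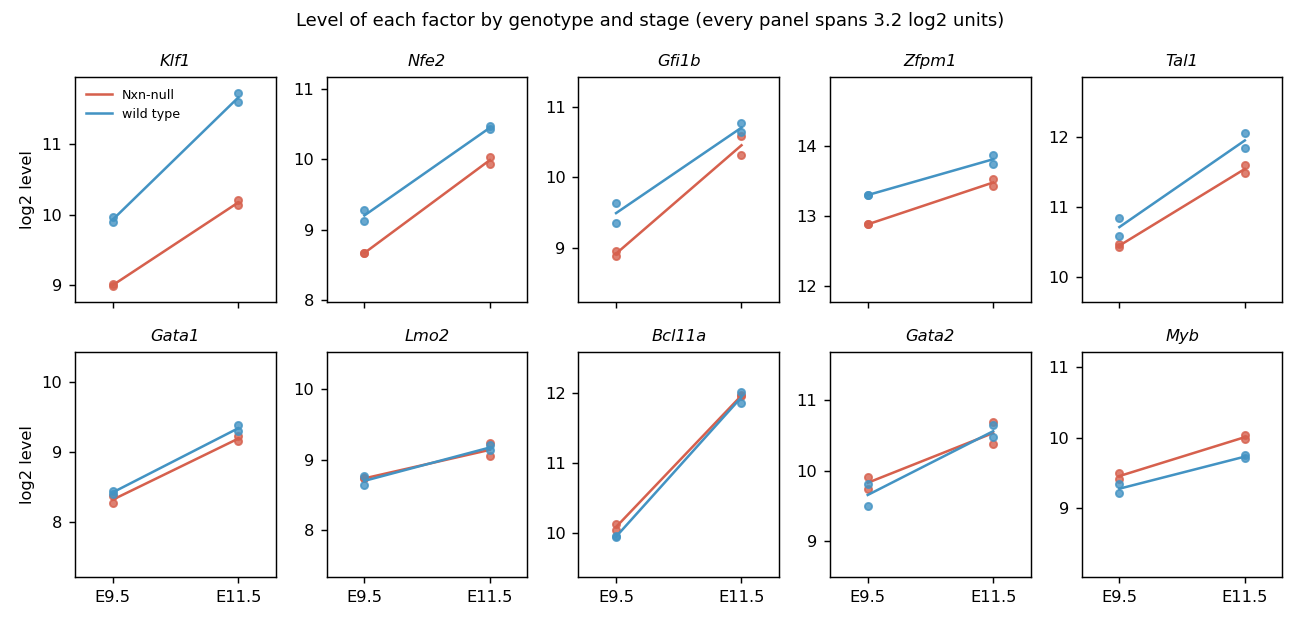
Log2 level (y axis, array intensity after normalization) of the brightest probe of each factor at E9.5 and E11.5 (x axis), in red for Nxn-null and blue for wild type. Points are single channels, lines join means of 2 arrays, and every panel spans 3.2 log2 units so that slopes can be compared. The Klf1 lines diverge, with single channels at 10.21 and 10.14 against 11.73 and 11.60 at E11.5.

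Textbook genes of the red cell program were mostly lower in the Nxn-null RNA, and which factors act on them was not tested. This list, too, was chosen with earlier results of these data known. Of 43 such genes, 39 were tested. At E9.5, 24 were lower and 2 higher, at E11.5, 31 were lower, and 23 were lower at both stages. Over all genes 14.8% were lower at E9.5, 5.64% at E11.5 and 3% at both. The list's median ratio was -0.30 (E9.5) and -0.53 (E11.5). The genes higher at E9.5, named after their values were seen, were Tmcc2 (0.33) and the survival gene Bcl2l1 (0.34 and 0.03 on the arrays). The embryonic beta-like globin gene Hbb-y had a ratio of -1.15 ± 0.37 at E9.5, then -1.46 ± 0.22 at E11.5, and Hbb-bh1 had -0.84 ± 0.41 and -1.25 ± 0.44 (SD, n = 2 arrays). The alpha-globin gene Hba-a1 had -0.60 ± 0.32 and -1.13 ± 0.08. Kel, a blood group protein, had -0.74 ± 0.13 and -0.995 ± 0.21. By the test of the difference between stages, the ratio was lower at the later stage for 20 of the 39 and higher for 1, the transferrin receptor gene Tfrc (-0.30 at E9.5, 0.09 at E11.5), which many cell types use. All 7 red cell markers, each also in this list, were lower at both stages. Their summed intensity was 56.1% to 57.2% of wild type at E9.5 and 37.9% to 46.8% at E11.5. Across all settings the list's median lay between -0.40 and -0.25 at E9.5 and between -0.58 and -0.42 at E11.5, whereas its count of lower genes ran from 3 to 24 and from 1 to 31.

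Other transcription factors of blood did not shift as a list. Of 38 listed, 34 were tested, and the median was 0.0030 at E9.5, then -0.02 at E11.5. At E9.5, 5 were lower and 2 higher, where 14.8% of all genes were lower and 9.88% higher. At E11.5, 1 was lower, where 5.64% of all genes were. These calls are thus no more frequent than among all genes. Lyl1, a close relative of Tal1, was the factor lower at both stages, with array values of -0.55 and -0.65, then -0.25 and -0.40, and limma adjusted p of 2.99e-07 and 0.00139. Runx1, needed for definitive blood stem cells, was at 0.18 at E9.5 (adjusted p = 0.0456) and 0.08 at E11.5 (adjusted p = 0.548). Erg, a progenitor and endothelial factor, was at -0.14 and -0.11, and Nfe2l1, a relative of Nfe2, at -0.06 and -0.06, none of them called. The remaining calls at E9.5, named after their values were seen, were Nfe2l2 (-0.24), Hhex (-0.21), Stat5b (-0.20) and Myc (-0.19) as lower and Mta2 (0.21) as higher. The arrays differed in sign for Stat5b (0.11 and -0.51), Myc (-0.45 and 0.08) and Mta2 (-0.07 and 0.48), so a single array gave those directions, and Hhex read -0.05 and -0.36. Across the settings the count of lower factors at E9.5 ran from 0 to 7.

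Markers of the cells that share these factors moved in different ways. Megakaryocytes, the platelet precursors, also use GATA1, FOG1, NFE2, GFI1B and TAL1. Of their 12 markers, 8 were lower and 1 higher at E9.5 (median -0.32), but 1 was lower and 8 higher at E11.5 (median 0.33). By the test of the difference, 10 of 12 had a higher ratio at the later stage and 1 a lower one, and 6 were called lower at E9.5 and higher at E11.5. Only 9 of the 12 were well above background in both genotypes at both stages. Itga2b, Gp5 and Gp6 were not, though all of them are among the 10 and Itga2b is among the 6. The integrin gene Itgb3 was lower at both stages, at -0.40 ± 0.07 and -1.05 ± 0.06 (SD, n = 2 arrays), and Gp1bb, a von Willebrand factor receptor subunit, was at 0.22 and 0.15. Their summed intensity was 65.8% to 73.4% of wild type at E9.5 and 108.1% to 126.5% at E11.5. The median kept its sign at each stage across the settings, from -0.67 to -0.18 and from 0.26 to 0.51. The counts varied: markers called lower at E9.5 ran from 0 to 9, those called higher at E11.5 from 0 to 9, and those with a higher ratio at the later stage from 0 to 10.

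Over all genes, 14.8% were lower and 9.88% higher at E9.5, and 5.64% were lower and 3.67% higher at E11.5. Single calls in a short list are therefore common. Of 11 tested macrophage and myeloid markers, 1 was lower and 1 higher at E9.5, whereas 2 were higher at E11.5, with medians of 0.01 and 0.07. Named after their values were seen, these were Lyz2 (-0.36) and C1qa (0.06 and 0.45 on the arrays), then Mpo (0.68) and Fcgr1 (0.22). Cd68, a macrophage membrane protein, was at -0.13 and -0.17 and was not called. Of 14 endothelial markers, 3 were lower at E9.5 and 1 higher at E11.5, with medians of -0.05 and 0.0079. Kdr, the receptor for vascular endothelial growth factor, was at -0.33 and -0.11, and Flt1, its relative, at 0.14 and 0.29. The other 2 lower at E9.5, named after their values were seen, were Sox17 (-0.30) and Emcn (-0.18). Sox17 read -0.02 and -0.57 on those arrays, so its call rests on replicate 2. Of 7 tested progenitor and mast cell markers 1 was higher at E9.5 (Mecom, 0.22), and Kit, the stem cell factor receptor, was at 0.02 and 0.10. Of 8 tested markers of ventral interneurons and midbrain cells, which also express Gata2 and Tal1, 1 was higher at E11.5 (Sox14, with 0.54 and 0.03 on the arrays). Of 5 tested trophoblast markers, in whose cells Gata2 is expressed, 2 were lower (Cdx2 and Hand1) and 2 higher (Prl3d1 and Ascl2) at E9.5. The 5 ratios at E9.5 ran from -2.27 to 1.06, and which cells gave them was not tested. Well above background in both genotypes at both stages were 3 of these 5 and 7 of the 11 macrophage and myeloid markers. So were 5 of the 7 progenitor and mast cell markers and 4 of the 8 interneuron and midbrain markers. The single names in these last lists were picked after their values were seen.

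Of 12 visceral endoderm markers, 11 were lower at E9.5 (median -2.95) and 2 at E11.5 (median -0.05). Of these 12, 8 were well above background in both genotypes at both stages. Apoa1 and Apob, apolipoprotein genes, were the named markers lower at both stages. Of 12 neuronal markers, 10 were higher at E9.5 (median 0.39) and none was called by limma at E11.5, where 1 had an unadjusted p under 0.05. Across the settings the count at E9.5 ran from 0 to 10 for the neuronal markers and from 9 to 11 for those of visceral endoderm.

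**Figure D5:**
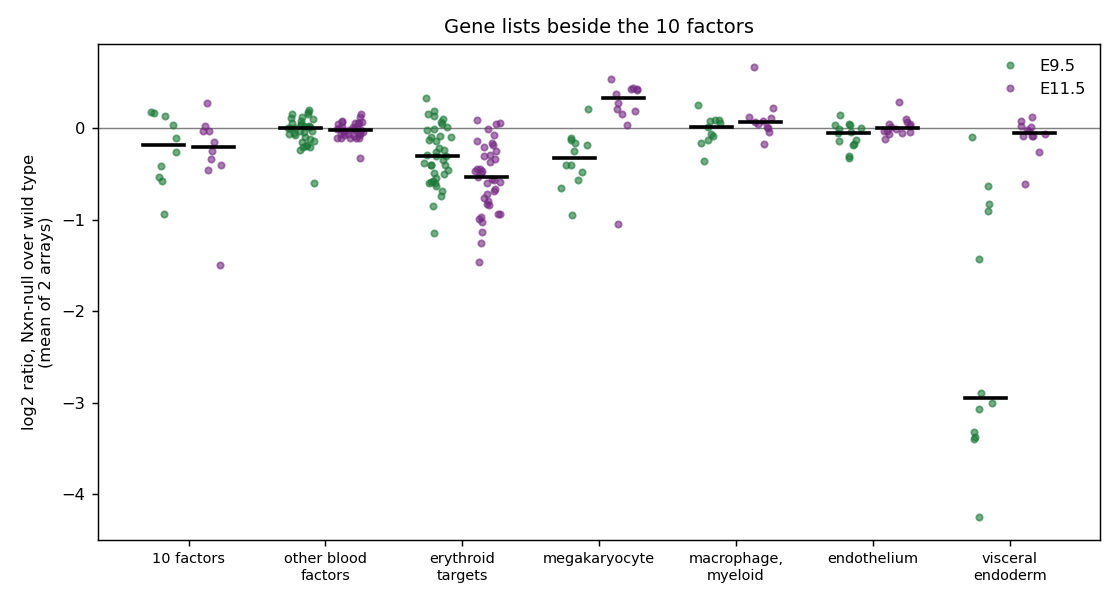
Mean log2 ratio of Nxn-null over wild type of 2 arrays (y axis) for each tested gene of 7 lists (x axis), in green (E9.5) and purple (E11.5). Black bars are list medians. The textbook red cell genes, labelled as erythroid targets, have medians of -0.30 and -0.53. The megakaryocyte median lies at -0.32 at E9.5, then 0.33 at E11.5.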

How the data were processed

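Per the file headers, the deposited scanner files hold spot intensity on a linear scale in each channel with its local background, written by Agilent Feature Extraction (version 9.1.3.1 in the headers, 9.5.3.1 in the submitters' processing notes). They also hold a log10 ratio of the dyes, which served only in one alternative. The series' deposited value table was on the log10 scale and equalled the log10 ratio of the processed signals in each array's own channels. Per the labels' protocols, cRNA was amplified linearly from total RNA.

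Mean intensities were corrected by normexp (offset 50) and normalized by loess in limma 3.58.1 under R 4.3.3. Spots of a probe were averaged, and 293 probes with outlier marks were left out. Of 41174 probes, 24994 were kept, being called well above background in either genotype by both arrays of a stage, 15 of the 16 member probes among them. The brightest probe stood for a gene. Ratios at each stage and their difference were fitted on 4 arrays with a dye term, on 1 residual degree of freedom (prior 18.4). The ratio shared by the stages and the change between stages were fitted on 2 stage or genotype averages (prior 2.85). P-values were adjusted by Benjamini-Hochberg over all 17161 genes. All arrays shared 1 slide and 1 scan time. The fits were tested on simulated data. Figures were drawn with matplotlib 3.10.9.

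The members and lists were chosen with earlier results of these data known. Named genes are all members, up to 4 genes of each list with the largest mean ratio among those of 1 sign on all arrays and above background in both genotypes, and the 3 genes nearest to each member called in the same direction at both stages. Symbols were updated from a RefSeq table of GRCm38.p6, and motifs were counted in its promoter table. Alternatives covered background correction, normalization, the filter, the probe rule, moderation, the dye term and single arrays.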

Additional observations from a re-analysis of the deposited data

Results flagged for a closer look

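The ratio of Nxn-null to wild type differed between E9.5 and E11.5 for 2 of the 10 factors, by the limma test of the difference itself over all genes. For Klf1 it was lower at E11.5, by a log2 difference of -0.56 (SE 0.088, adjusted p = 0.000111), with both arrays of E11.5 below both arrays of E9.5. For Gfi1b it was higher at E11.5, by 0.33 (SE 0.091, adjusted p = 0.0192), with both arrays of E11.5 above both arrays of E9.5. Over their 14 settings the adjusted p ranged from 0.000111 to 0.987 for Klf1 and from 0.0185 to 0.9998 for Gfi1b.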

How the results depend on the processing

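Klf1 was called lower in 14 of 14 settings at E9.5 (-1.07 to -0.86) and at E11.5 (-1.63 to -1.35). The dye term, which is the block that joins same-numbered arrays, changed the smaller calls. Replicate numbers here only name the dye orientation and follow accession order, so no samples are paired by them. With no replicate block, 1 member was lower and 0 higher at each stage and 0 differed between stages in either direction, against 5 lower at each stage, 2 and 1 higher, and 1 in each direction for the difference. Median centring left 2 lower at E9.5, then 1 at E11.5, the Feature Extraction log ratio left 3 and 1, and both left 0 higher at either stage and 0 for the difference. Members higher at E9.5 also came to 0 with an offset of 10 or no filter, and to 1 with the mean of probes, with trend and robust moderation, or with every probe tested. At E11.5 the mean of probes left 0 higher. The difference for Gfi1b was lost (0 members higher) with no filter and with trend and robust moderation. With single arrays left out, members lower ranged from 1 to 2 at E9.5 and were 1 at E11.5, and members higher and both directions of the difference were 0 throughout. These fits have no dye term. The reversed value was Gata2 at E9.5, which ran from -0.076 (without E9.5 replicate 1) to 0.42 with single arrays left out. Another 24 of 620 member values changed sign but were called under neither setting. The shared ratio called 0 members in every setting. The count of 10 risen factors stayed within 1.5 times everywhere, and single calls were lost for Klf1 without the genotype term and for Zfpm1 there and with the processed signals. Median centring moved the median of all genes to 0.05 at E9.5 and 0.10 at E11.5. All 10 brightest probes were well above background in all 8 channels.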

Other observations

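Single genes outside the naming rule, picked after their values were seen, included platelet lineage markers with large swings between stages. Of the 12 megakaryocyte markers, 9 were well above background in both genotypes at both stages. By the limma test of the difference, 10 of the 12 had a higher ratio at the later stage. Itgb3 went the other way, by -0.65 (adjusted p = 2.60e-05), and Gp1bb differed by -0.06 without a call. Pf4 and Ppbp, chemokines of platelet granules, read -0.69 and -1.21, and -0.54 and -0.59, on the E9.5 arrays, but 0.70 and 0.16, and 0.50 and 0.58, on the E11.5 arrays. Their ratio differed between stages by 1.39 and 1.10 (limma adjusted p = 3.05e-10 and 1.27e-08). Treml1 and Gp9, platelet membrane proteins, had ratios of -0.65 and -0.47 at E9.5 but 0.44 and 0.38 at E11.5. Mpo, the myeloperoxidase of granulocyte precursors, moved the same way, from -0.16 to 0.68 (adjusted p of the difference 6.27e-07). Gfi1b was the member whose ratio was called higher at the later stage, by 0.33. That call held in 5 of 14 settings, with values from 0.12 to 0.53. Nfe2, Zfpm1 and Tal1, also used in megakaryocytes, moved by 0.07, 0.09 and -0.14 without a call. A link between these factors and the platelet markers was not tested.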
